A study of Arabidopsis thaliana with 12 samples.

Results

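The 5 *UGT73B* genes of *Arabidopsis thaliana* were followed in seedlings treated with progesterone or testosterone. They were taken by locus from the count table: *UGT73B1* (AT4G34138), *UGT73B2* (AT4G34135), *UGT73B3* (AT4G34131), *UGT73B4* (AT2G15490) and *UGT73B5* (AT2G15480), which are 5 of 38618 loci. All 5 passed the filter on low counts, as did 23203 loci in all. The genes were chosen by their family and with the fold changes of PO and TO over DMSO in these libraries already known, so those comparisons describe them and carry no test, while progesterone against testosterone was tested. RNAseq was carried out on Col-0 plants moved at 7 days of age to a medium named PNM. After 2 days of adaptation the plants received 10 µM progesterone (PO), 10 µM testosterone (TO) or only the solvent, 0.12% DMSO, as mock treatment (DMSO). PO was dissolved in 0.12% DMSO, and leaves were collected 1 h later. Each treatment had 4 replicates, which makes 12 libraries. Every direction given here rests on the library names in the labels, which tie count columns to treatments, and no gene of known response was used to check them. The study lists *UGT73B2* and *UGT73B3*, and also *UGT73C1*, *DOGT1* and *UGT75B1* named below, with reduced expression after both steroids. That is the opposite of the direction given here, and which of them is reversed was not tested. An age of 10 days stands only in the growth description of the labels. The study describes the replicates as biological and independent. The labels do not say whether they were separate cultures, so part of the spread given here may still be technical.

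UDP-dependent glycosyltransferases (UGTs) move a sugar, mostly glucose from UDP-glucose, onto hormones, flavonoids and foreign compounds. Sugar transfer makes a small molecule more soluble and is often followed by transport into the vacuole. The *UGT73B* enzymes are known from work in *A. thaliana* as stress- and chemical-inducible members of this family. *UGT73B2* glucosylates flavonols, *UGT73B3* and *UGT73B5* contribute to resistance against the bacterial pathogen *Pseudomonas syringae*, and *UGT73B4* can glucosylate breakdown products of the explosive TNT.

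The genes form 2 clusters. *UGT73B3*, *UGT73B2* and *UGT73B1* lie on the minus strand of chromosome 4 within 7147 bases, at chr4:16343057-16344818, chr4:16345150-16347434 and chr4:16347997-16350203 (RefSeq annotation of TAIR10.1). Between these neighbours lie 331 and 562 bases. *UGT73B5* and *UGT73B4* lie on the plus strand of chromosome 2, at chr2:6758430-6763501 and chr2:6761635-6763500. A second annotated transcript of *UGT73B5* runs on to the end of *UGT73B4*, so that 255 exonic bases belong to both genes and their counts are uncertain there. Coding sequences were 90.9% identical between *UGT73B4* and *UGT73B5* and 88.7% identical between *UGT73B2* and *UGT73B3*. All other pairs were 69.3% to 71.5% identical.

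The longest identical coding stretches show how far reads of the most similar genes can be told apart. Reads were sequenced in pairs, and each read was, before trimming, longer than either stretch given below. The stretch of *UGT73B2* at chr4:16346898-16346979, which recurs in *UGT73B3* at chr4:16344598-16344679, has 82 bases and is given 5′ to 3′ on the minus strand.
UGT73B2 and UGT73B3: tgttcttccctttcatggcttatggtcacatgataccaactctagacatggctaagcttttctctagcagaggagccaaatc
The stretch of *UGT73B4* at chr2:6763154-6763293, also found in *UGT73B5* at chr2:6760208-6760347, has 140 bases on the plus strand.
UGT73B4 and UGT73B5: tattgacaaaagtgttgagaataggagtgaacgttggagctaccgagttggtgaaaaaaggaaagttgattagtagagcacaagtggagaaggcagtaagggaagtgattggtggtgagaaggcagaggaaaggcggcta
Exonic stretches of 50 bases that also occur elsewhere in the genome made up 0.0% of *UGT73B1*, 2.4% of *UGT73B2*, 3.2% of *UGT73B3*, 6.1% of *UGT73B4* and 4.5% of *UGT73B5*. Stretches of 100 bases recurred only for *UGT73B4* (2.8%) and *UGT73B5* (2.0%).

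The bases before the annotated starts are shown because TGA transcription factors, which act in chemical detoxification, bind elements with the core TGACG, known from the as-1 element of a viral promoter. Capitals mark TGACG or, for a match on the opposite strand, CGTCA. Each segment is read 5′ to 3′ on the strand of its gene, from RefSeq TAIR10.1.
UGT73B1, chr4:16350329-16350408, minus strand: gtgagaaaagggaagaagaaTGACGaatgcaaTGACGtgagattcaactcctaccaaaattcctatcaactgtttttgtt
UGT73B3, chr4:16344873-16344952, minus strand: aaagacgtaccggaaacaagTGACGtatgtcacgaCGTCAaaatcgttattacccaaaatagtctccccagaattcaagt
UGT73B4, chr2:6761456-6761535, plus strand: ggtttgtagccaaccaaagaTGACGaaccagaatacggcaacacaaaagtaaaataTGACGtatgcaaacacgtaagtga
UGT73B5, chr2:6758356-6758429, plus strand: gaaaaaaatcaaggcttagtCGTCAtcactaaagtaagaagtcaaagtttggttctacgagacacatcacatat
For *UGT73B2* the whole window of 300 bases is given, since TGACG was found on neither strand.
UGT73B2, chr4:16347435-16347734, minus strand: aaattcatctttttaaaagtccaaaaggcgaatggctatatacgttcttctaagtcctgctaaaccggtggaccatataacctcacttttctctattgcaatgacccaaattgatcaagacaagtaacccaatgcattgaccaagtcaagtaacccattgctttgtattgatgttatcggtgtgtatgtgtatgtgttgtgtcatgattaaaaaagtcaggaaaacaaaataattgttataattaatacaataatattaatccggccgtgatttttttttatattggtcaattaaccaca

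In the 300 bases before the start, searched on both strands, TGACG was found in 4 of 5 *UGT73B* genes. Of 27443 promoters of the same length, 21.3% held it. *UGT73B1*, *UGT73B3* and *UGT73B4* had 2 matches each, as did 3.99% of all promoters with 2 or more. In *UGT73B1* they lay 185 and 173 bases before the start, in *UGT73B3* 114 and 99 bases, in *UGT73B4* 159 and 123 bases, and the single match of *UGT73B5* lay at 54 bases. TTGAC, the W-box core bound by WRKY factors, was also found in 4 of 5 genes, against 50.4% of promoters, and *UGT73B1* had none. In *UGT73B3* the TTGAC match overlaps the second TGACG match. The G-box CACGTG occurred only in *UGT73B4* (7.09% of promoters), and GAANNTTC, the core of heat shock elements, in none of the 5 (11.5% of promoters). Matches are a description of letters and do not show binding.

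**Figure D1:**
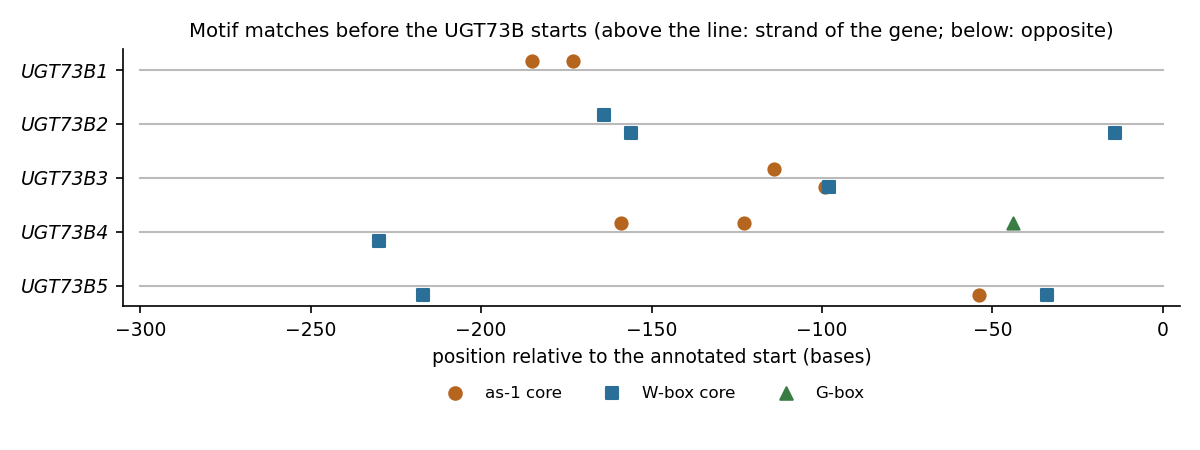
Motif matches in the 300 bases before the annotated start of each UGT73B gene (horizontal axis: position relative to the start in bases; symbols above a line: strand of the gene, below: opposite strand). The as-1 core is TGACG, the W-box core TTGAC and the G-box CACGTG. UGT73B2 shows W-box cores only, while UGT73B1 shows 2 as-1 cores and nothing else.

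For each pair of *UGT73B* genes the longest identical run of the promoter windows was taken, and the longest of these runs are given. Each count of promoters includes the 2 genes that share the run, so it could not be under 2. The other pairs shared runs of 8 to 10 bases. *UGT73B3* and *UGT73B4* share gacgtatgcaaa (12 bases), which was found in 2 of 27443 promoters. *UGT73B4* and *UGT73B5* share agaagtcaaagtttg (15 bases), also found in 2 promoters, and *UGT73B2* and *UGT73B3* share tgtcatgattaa (12 bases), found in 5 promoters.

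Total counts ranged from 41036335 to 63445014 per library, and 3 counts correspond to 0.047 to 0.0723 CPM, a limit that covers counting error only. CPM, the usual unit of counts relative to the library total, was computed after scaling the libraries by TMM factors. Markers of leaves (*RBCS1A*, *CAB1* and *RCA*, all of photosynthesis) summed to 27340 to 30900 CPM in PO, 26850 to 29270 CPM in TO and 28170 to 34250 CPM in DMSO libraries. Root markers summed to 103.6 to 207.7 CPM in PO, 188.5 to 326.1 CPM in TO and 130.4 to 178.3 CPM in DMSO libraries, nearly all of it *PYK10*, while *EXPA7* did not exceed 0.5016 CPM. All TO libraries thus lay above all DMSO libraries in the root marker sum, which is in effect *PYK10* alone. The same held for 2.9% of all tested loci, and the part of this in the results for TO was not tested. Flower markers (*AP3*, *AG* and *AP1*) summed to at most 0.4124 CPM in PO, 0.5302 CPM in TO and 0.4466 CPM in DMSO libraries, with *AP3* and *AP1* at 0 in every DMSO library.

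The 3 genes of the chromosome 4 cluster were higher in every PO and TO library than in any DMSO library, with *UGT73B2* changed about 4-fold and its neighbours about 2-fold. The chromosome 2 genes did not pass the threshold (adjusted p under 0.05, edgeR quasi-likelihood test) and their groups overlapped. Called higher were thus 3 of 5 genes in PO, where 0.159% of all tested loci were called higher, and 3 of 5 in TO, where it was 0.246%. Called lower were 0.00862% of loci in PO and 0.0388% in TO, none of them *UGT73B* genes. Every treated library lay above every DMSO library for 2.85% of loci in PO and 2.9% in TO. Since these comparisons chose the genes, nothing is read from the counts. PO and TO also share the DMSO libraries. In whole leaves, more RNA per cell and more cells of a type that expresses a gene cannot be told apart.

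*UGT73B2*, the flavonol glucosyltransferase in the middle of the cluster, had 43.6, 51.6, 85.1 and 69.1 CPM in PO libraries 1 to 4, 49.6, 65.9, 80.1 and 37.6 CPM in TO libraries and 17.2, 19.4, 11.3 and 13.0 CPM in DMSO libraries. The lowest treated library, TO replicate 4, lay well above the highest DMSO library, DMSO replicate 2. The log2 fold change was 2.04 ± 0.25 (SE) in PO and 1.94 ± 0.25 in TO, which is 4.10-fold (95% interval 2.83 to 5.94) and 3.83-fold (2.64 to 5.55). By log2 fold change *UGT73B2* ranked 17 among the 23203 loci in PO and 32 in TO.

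*UGT73B3*, which lies next to it and is most similar in sequence, had 28.7, 32.9, 46.2 and 41.9 CPM in PO libraries, 28.3, 33.8, 44.4 and 31.9 CPM in TO libraries and 15.9, 18.3, 16.6 and 15.9 CPM in DMSO libraries. The DMSO libraries differed little among themselves (coefficient of variation 6.88%), less than those of PO (21.4%) and TO (19.98%). The log2 fold change was 1.17 ± 0.15 (SE) in PO and 1.05 ± 0.15 in TO.

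*UGT73B1*, the member whose recombinant enzyme glucosylates abscisic acid, had 104.0, 144.2, 159.4 and 143.6 CPM in PO libraries, 112.9, 125.9, 130.9 and 109.2 CPM in TO libraries and 43.5, 77.3, 67.0 and 68.1 CPM in DMSO libraries. Per kb of exon it had the highest level of the 5 genes in every library, and PO replicate 1 was the lowest of the treated libraries. The log2 fold change was 1.108 ± 0.161 (SE) in PO and 0.91 ± 0.16 in TO. The call in TO was lost in 7 of 18 alternatives: in the fit of TO and DMSO libraries alone (log2 fold change 0.90) and without DMSO replicate 3 (0.92), DMSO replicate 4 (0.94), PO replicate 4 (0.90), TO replicate 1 (0.93), TO replicate 2 (0.88) or TO replicate 3 (0.86).

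*UGT73B4* had 9.55, 11.4, 14.7 and 11.6 CPM in PO libraries, 16.6, 12.9, 16.5 and 8.44 CPM in TO libraries and 9.71, 14.1, 4.76 and 4.58 CPM in DMSO libraries. DMSO replicates 3 and 4 lay below every treated library, while DMSO replicate 2 lay above all but 1 PO library. The log2 fold change was 0.52 ± 0.32 (SE) in PO and 0.71 ± 0.32 in TO, and without DMSO replicate 2 it was 0.89 in PO and 1.09 in TO. Without DMSO replicate 3 it was 0.33 in PO and 0.52 in TO, and without DMSO replicate 4 it was 0.32 and 0.51. None of these fits gave a call.

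*UGT73B5* had 30.1, 25.98, 38.1 and 30.7 CPM in PO libraries, 39.3, 32.7, 44.2 and 27.5 CPM in TO libraries and 26.1, 43.5, 18.3 and 17.1 CPM in DMSO libraries. DMSO replicate 2 exceeded all PO libraries and all but 1 TO library. DMSO replicate 1 lay just above the lowest PO library, and DMSO replicates 3 and 4 lay below every treated library. The log2 fold change was 0.25 ± 0.25 (SE) in PO and 0.45 ± 0.25 in TO, and without DMSO replicate 2 it was 0.61 in PO and 0.80 in TO. Without DMSO replicate 3 it was 0.11 in PO and 0.31 in TO, without DMSO replicate 4 it was 0.095 and 0.29, and without PO replicate 3 it was 0.14 in PO. Again no fit gave a call. The DMSO libraries varied more for both chromosome 2 genes (coefficients of variation 54.7% for *UGT73B4* and 46.5% for *UGT73B5*) than for the chromosome 4 genes (6.88% to 24.6%).

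**Figure D2:**
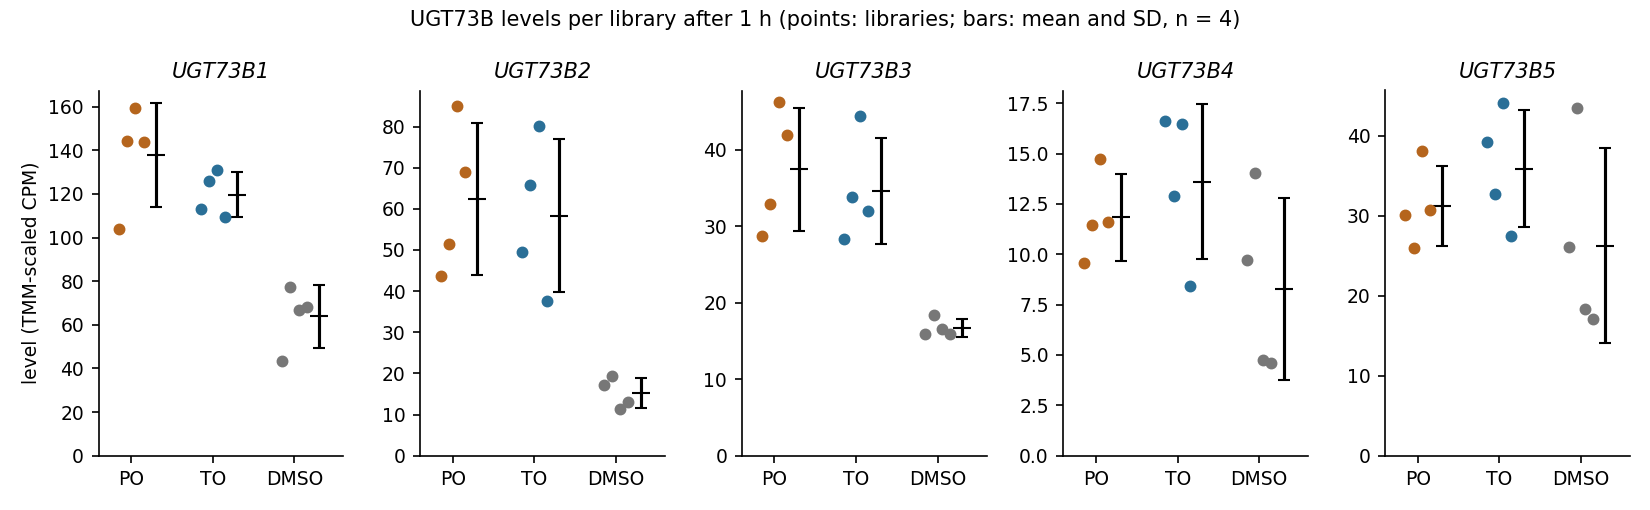
Levels of the 5 UGT73B genes per library (vertical axes: TMM-scaled CPM, starting at 0 and scaled for each gene; points: libraries in replicate order; bars: mean and SD, n = 4). For UGT73B1, UGT73B2 and UGT73B3 all PO and TO points lie above all DMSO points, while for UGT73B4 and UGT73B5 DMSO replicate 2, at 14.1 and 43.5 CPM, lies among or above the treated points.

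High and low libraries were partly the same for all genes. PO replicate 3 was the highest PO library for 5 of 5 genes and PO replicate 1 the lowest for 4. Among TO libraries replicate 3 was highest and replicate 4 lowest for 4 genes each. DMSO replicate 2 was the highest DMSO library for all 5 genes.

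PO and TO, which differ in the group on the D ring (acetyl in PO, hydroxyl in TO), were compared directly at the same dose and time. No difference passed for any of the 5 genes. With p-values adjusted over 23203 loci (edgeR), the log2 difference PO minus TO was 0.20 for *UGT73B1* (95% interval -0.14 to 0.55, adjusted p = 0.774), 0.10 for *UGT73B2* (-0.43 to 0.63, adjusted p = 0.936), 0.11 for *UGT73B3* (-0.21 to 0.44, adjusted p = 0.867), -0.20 for *UGT73B4* (-0.88 to 0.48, adjusted p = 0.889) and -0.20 for *UGT73B5* (-0.74 to 0.34, adjusted p = 0.862). The intervals leave room for differences of up to 0.55 on the log2 scale for *UGT73B1* and 0.88 in size for *UGT73B4*, so equal action is not shown. Of all tested loci, 0.0% were called between PO and TO with edgeR, 1782 had an unadjusted p under 0.05, and DESeq2 called 4. The sign of the difference for *UGT73B2* and *UGT73B3* turned when PO replicate 3 was left out (-0.09 and below 0 by 0.001), and for *UGT73B2* also without TO replicate 4 (-0.06).

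**Figure D3:**
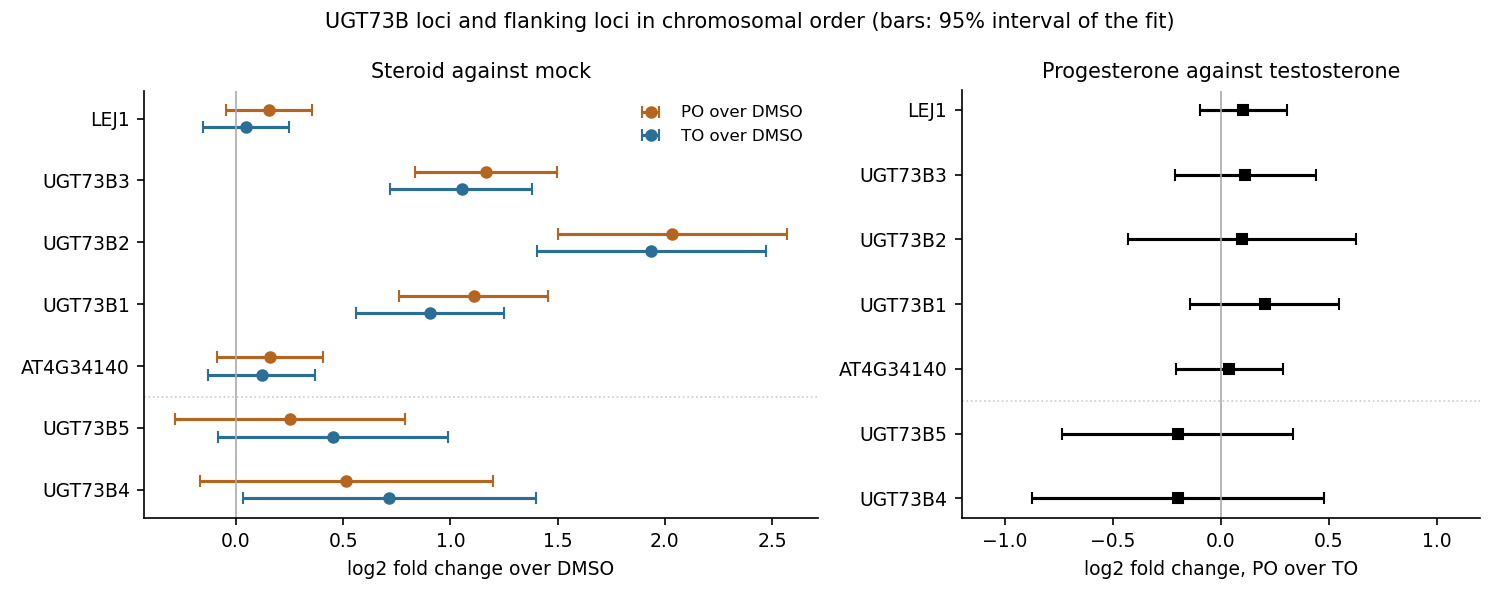
Log2 fold changes of UGT73B genes and flanking loci in chromosomal order, chromosome 4 above the dotted line and chromosome 2 below it (left: PO and TO over DMSO; right: PO over TO; bars: 95% interval of the edgeR fit on 12 libraries). In the left panel the chromosome 4 genes lie at 0.91 to 2.04, while the flanking LEJ1 and AT4G34140 lie at 0.05 to 0.16, and in the right panel every interval includes 0.

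Levels were compared between genes per length, as CPM per kb of annotated exon. In DMSO libraries the order was *UGT73B1* (30.7 ± 6.93, SD, n = 4), *UGT73B5* (11.1 ± 5.18), *UGT73B3* (9.46 ± 0.651), *UGT73B2* (6.65 ± 1.63) and *UGT73B4* (4.95 ± 2.71). *UGT73B5* overlapped with *UGT73B3*, *UGT73B2* and *UGT73B4*, and *UGT73B2* with *UGT73B4*. In PO libraries *UGT73B2* took the second place, with 66.2 ± 11.4 for *UGT73B1*, 27.3 ± 8.10 for *UGT73B2*, 21.2 ± 4.55 for *UGT73B3*, 13.3 ± 2.14 for *UGT73B5* and 7.08 ± 1.28 for *UGT73B4*. The order was the same in TO libraries, with 57.5 ± 4.95 CPM per kb for *UGT73B1*, 25.5 ± 8.15 for *UGT73B2*, 19.6 ± 3.92 for *UGT73B3*, 15.2 ± 3.11 for *UGT73B5* and 8.14 ± 2.30 for *UGT73B4*. *UGT73B2* and *UGT73B3* overlapped in PO and TO, and *UGT73B5* overlapped with both in TO. Without division by length, *UGT73B5* (35.9 CPM) came before *UGT73B3* (34.6 CPM) in TO libraries, while the order in PO and DMSO libraries was the same as per kb.

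The 5 genes together had 135.0 ± 25.7 CPM per kb in PO, 126.0 ± 20.2 in TO and 62.9 ± 13.4 in DMSO libraries (SD, n = 4 each). No difference between PO and TO was detected in this sum (log2 difference 0.09, exact two-sided permutation test, p = 0.629, smallest possible p 0.0286). *UGT73B2* made up 19.9 ± 2.33% of the sum in PO, 19.9 ± 3.39% in TO and 10.7 ± 2.24% in DMSO libraries. *UGT73B5* made up 9.96 ± 1.65% in PO, 12.1 ± 1.49% in TO and 17.2 ± 4.83% in DMSO libraries. The shares of *UGT73B1* (49.2% in PO, 46.1% in TO and 49.1% in DMSO) and of *UGT73B3* (15.7% in PO, 15.6% in TO and 15.3% in DMSO) differed between groups by less than the spread between libraries. The ratio of *UGT73B2* to *UGT73B3* counts within a library was 1.52 to 1.84 in PO, 1.18 to 1.95 in TO and 0.678 to 1.08 in DMSO, with no overlap between treated and DMSO libraries. The fold changes behind this ratio were known when the genes were chosen, and other pairs of genes were not computed, so nothing is read from it.

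**Figure D4:**
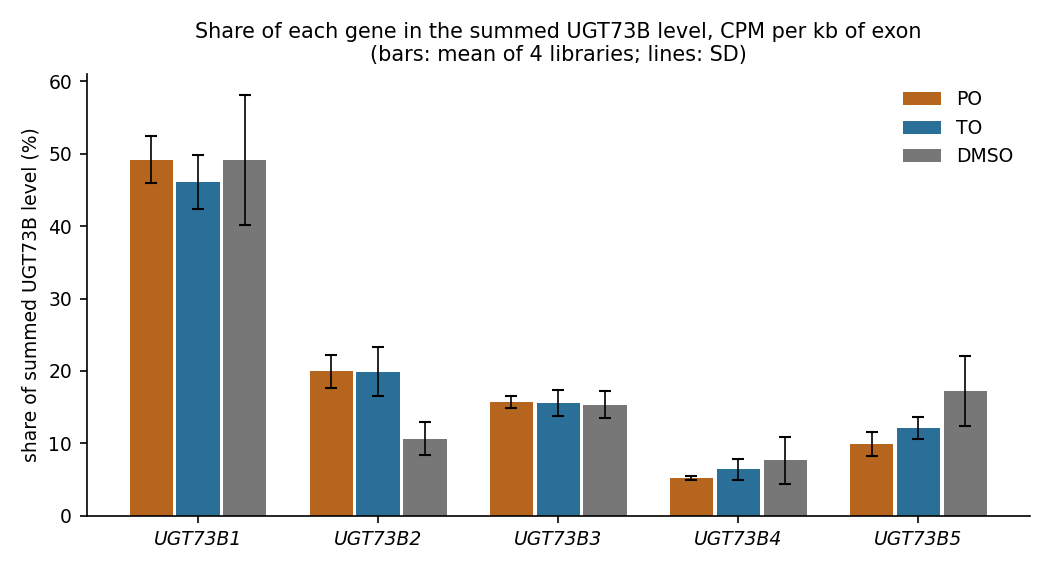
Share of each UGT73B gene in the summed level of the 5 genes (vertical axis: percent of CPM per kb of exon, starting at 0; bars: mean of 4 libraries; lines: SD). The share of UGT73B2 is 19.9% in PO and TO against 10.7% in DMSO, and that of UGT73B1 is 46.1% to 49.2% in all 3 groups.

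The loci beside and across the clusters were read next. *LEJ1* (AT4G34120), a gene for a protein with CBS domains that overlaps the end of *UGT73B3* by 62 bases on the opposite strand, averaged 163.7 CPM in PO, 152.3 CPM in TO and 147.3 CPM in DMSO libraries. Its log2 fold change was 0.15 ± 0.09 (SE) in PO and 0.05 ± 0.09 in TO, with no call. AT4G34140, which encodes a G-patch protein and starts 258 bases from the start of *UGT73B1* in the opposite direction, averaged 42.0 CPM in PO, 40.9 CPM in TO and 37.7 CPM in DMSO libraries. Its log2 fold change was 0.16 ± 0.12 in PO and 0.12 ± 0.12 in TO, also with no call. The 2 TGACG matches of *UGT73B1*, at 185 and 173 bases, thus lie between both starts. AT2G15470 and AT2G15500, the neighbours on chromosome 2, had 0 counts in all 12 libraries.

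Annotated loci on the opposite strand within the chromosome 4 genes were called higher in PO and TO as well, although these calls were lost without some single libraries. AT4G34139, of which 711 of 747 exonic bases lie opposite exons of *UGT73B1*, averaged 96.4 CPM in PO, 88.1 CPM in TO and 48.9 CPM in DMSO libraries (log2 fold change 0.98 ± 0.15 in PO and 0.85 ± 0.15 in TO, SE). Its counts were 0.680 to 0.718 of those of *UGT73B1* in PO, 0.707 to 0.747 in TO and 0.740 to 0.836 in DMSO libraries. The non-coding AT4G08935, whose 202 exonic bases all lie opposite *UGT73B3*, averaged 10.2 CPM in PO, 9.39 CPM in TO and 3.48 CPM in DMSO libraries (log2 fold change 1.55 ± 0.23 in PO and 1.43 ± 0.23 in TO). Its counts were 0.259 to 0.284 of those of *UGT73B3* in PO, 0.257 to 0.285 in TO and 0.142 to 0.258 in DMSO libraries. The library kit marks the strand by dUTP, but the strand setting of the counting is not given in the sources used here, so reads of these loci and of the *UGT73B* genes may not be separated.

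The loci closest to each chromosome 4 gene in profile were listed as a description, by the root mean square difference of log2(CPM + 0.5) over the 12 libraries after centring on the DMSO mean, a scale that understates the change of low genes. The closest to *UGT73B1* were AT4G34139 (0.104), *UGT73B3* (0.202), the glutathione transferase gene *GSTU8* (0.217), *CSLE1* (0.221) of the cellulose synthase-like family and the glycosyltransferase gene AT2G36770 (0.234). The closest to *UGT73B2* were the non-coding AT2G08340 (0.219), *GSTU7* (0.220), *UGT73C1* (0.261), *DOGT1* (0.272) and *GSTU1* (0.349). AT2G08340 and *GSTU7* had log2 fold changes of 1.744 and 1.719 in PO and of 1.89 and 1.882 in TO. Whether their exons overlap was not checked, so they may not be separate in the counts. With a pseudocount of 0.05, tried after the data were seen, *UGT73C1* (0.802) ranked 36 and *GSTU1* (0.439) ranked 11, so that 3 of these 5 were kept. *UGT73B3* was closest to AT4G13180 (0.164), annotated as an NAD(P)-binding protein, AT5G61820 (0.195), *UGT73B1* (0.202), the cytochrome P450 gene *CYP89A5* (0.211) and the transporter gene *ABCG34* (0.214). Without 1 library, 1 to 5 of these 5 loci were kept for *UGT73B1*, 4 to 5 for *UGT73B2* and 2 to 4 for *UGT73B3*. *UGT73B1* kept only 1 without DMSO replicate 1, as *UGT73B3* kept 2.

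Of the other *UGT73* genes that were matched by name, 5 were tested. *UGT73C3* and *UGT73C4* matched no locus, so the list is not the whole family and unnamed members may stand among other loci. *UGT73C1* averaged 3.64 ± 1.07 CPM in PO, 3.65 ± 1.51 CPM in TO and 0.449 ± 0.164 CPM in DMSO libraries (SD, n = 4 each), with log2 fold changes of 3.02 ± 0.34 in PO (SE, adjusted p = 0.00173, edgeR) and 3.01 ± 0.34 in TO (adjusted p = 0.00139, edgeR). *DOGT1* (*UGT73C5*), which glucosylates deoxynivalenol and brassinosteroids, averaged 26.6 ± 7.84 CPM in PO, 22.4 ± 7.50 CPM in TO and 5.58 ± 0.515 CPM in DMSO libraries, with log2 fold changes of 2.26 ± 0.25 in PO (adjusted p = 0.00172, edgeR) and 2.00 ± 0.25 in TO (adjusted p = 0.00299, edgeR). These 2 of 5 rose and none fell in PO or TO, where 0.159% and 0.246% of all tested loci were called higher. The list was chosen with these results known, so these p-values describe the genes and carry no test. The median log2 fold change of the list was 0.63 in PO and 0.58 in TO, against -0.01 and 0.00 over all tested loci. The *UGT73B* median was 1.108 in PO and 0.91 in TO.

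Of 45 tested genes with another UGT name, 1 rose in PO and in TO and none fell with edgeR, where 0.159% of all loci were called higher in PO and 0.246% in TO. The count was 3 in PO without PO replicate 1, and in TO 3 without TO replicate 1 or 4 and 2 without DMSO replicate 2. DESeq2 called 4 higher in PO and 5 in TO. The gene called with edgeR was *UGT75B1*, with 100.2 CPM in PO, 108.9 CPM in TO and 34.2 CPM in DMSO libraries and log2 fold changes of 1.55 ± 0.18 in PO (adjusted p = 0.00227, edgeR) and 1.67 ± 0.18 in TO (adjusted p = 0.00139, edgeR). The median of the 45 was 0.11 in PO and 0.09 in TO. This list too was chosen with earlier results of these data known, so the p-values of *UGT75B1* are a description and carry no test.

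Enzymes and regulators of flavonoid metabolism did not pass the test (0 of 11 in PO and in TO, median log2 fold change -0.13 and 0.09). Among them are *UGT78D1* and *UGT78D2*, which also belong to the genes with another UGT name. The smallest p-values were those of *MYB111* in PO (-0.68 ± 0.31) and *MYB12* in TO (1.62 ± 0.78), both genes for activators of flavonol synthesis, and *MYB12* averaged only 0.522 CPM in TO libraries. Genes that supply UDP-sugars also gave 0 of 10, with medians of 0.02 in PO and -0.01 in TO. *UGP2*, a UDP-glucose pyrophosphorylase, had the smallest p in PO (-0.21 ± 0.12), and *UGD2*, a UDP-glucose dehydrogenase, in TO (-0.24 ± 0.11). *TGA2*, *TGA5*, *TGA6* and *SCL14*, regulators of chemical detoxification of which the TGA factors bind TGACG, gave 0 of 4, with *SCL14* at 0.10 ± 0.09 in PO and 0.11 ± 0.09 in TO. Of all tested loci, 0.159% were called higher and 0.00862% lower in PO, and 0.246% and 0.0388% in TO. Counts of 0 in lists this short are near these shares and are not read as a result about these genes.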

How the data were processed

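The table deposited by the authors holds raw read counts, whole numbers with no scaling, for 12 libraries. The reads had been trimmed (fastp 0.23.2), mapped on TAIR10.1 (HISAT2 2.2.1) and assigned to loci with featureCounts 2.0.1, whose strand, overlap and read pair options are not given in the sources used here. Of the counts from 1 to 20, 67.8% to 72.3% per library were even, and counts would exceed molecules if mates were counted separately. Libraries were grouped by the labels. Members and gene lists were chosen with earlier results of these data known.

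Loci passing filterByExpr (minimum count 10) were fitted with edgeR 4.0.16 (R 4.3.3): TMM factors, treatment as the only term, 12 libraries, 9 residual degrees of freedom, prior count 0.125 and Benjamini-Hochberg adjustment over 23203 loci. Called means an adjusted p under 0.05. Standard errors and 95% intervals come from the fit (13.8 total degrees of freedom). Replicates 1 to 4 did not pair the libraries. All replicate pairs differed by more than sampling noise. Profiles used log2(CPM + 0.5).

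Promoter windows of 300 bases were read from the genome in place of the promoter table first planned, and shared coding stretches were found with Biopython 1.88. Of the loci, 98.6% matched the annotation. Named are the members, overlapping and next loci, nearest profiles, called list genes and otherwise the smallest p of each list. Of the list symbols, 6 of 8 *UGT73*, 14 of 16 flavonoid and 11 of 12 sugar supply genes were matched. In simulated counts for PO against DMSO on 23203 loci, the fit recovered 86 of 100 changes of 2-fold and 99 of 100 of 4-fold, with 15 false among 200 calls. The simulation gave loci of like level the same dispersion and held more changed loci than were called in PO. These shares therefore need not hold for the real counts. Alternatives were DESeq2 1.42.0, other scalings, no filter, only the groups compared, a replicate block, leaving out each library and levels not divided by length.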

Additional observations from a re-analysis of the deposited data

How the results depend on the processing

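The counts of called loci depended on the tool and on single libraries. DESeq2 called 318 loci in PO, 298 in TO and 4 between PO and TO, against 39, 66 and 0 with edgeR, and 60 were called in PO without the filter. Without 1 library, 23 to 144 loci were called in PO (23 without DMSO replicate 1 or PO replicate 4, 144 without PO replicate 1) and 26 to 73 in TO (26 without TO replicate 3). Of the 5 *UGT73B* genes, 3 were called in PO under every alternative and 2 to 3 in TO. Without 1 library, the log2 difference PO minus TO ranged from -0.087 to 0.288 for *UGT73B2* (-0.087 without PO replicate 3, -0.064 without TO replicate 4), from -0.001 to 0.256 for *UGT73B3* (-0.001 without PO replicate 3) and from -0.010 to 0.213 for the summed level (-0.010 without PO replicate 3). The other *UGT73B* differences kept their sign under every alternative run, and so did the fold changes over DMSO of all 5 genes.

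The call of AT4G34139 in PO was lost when TO libraries were left out of the fit (adjusted p = 0.0709), and also without DMSO replicate 3 or 4 or PO replicate 2, 3 or 4 (adjusted p = 0.0535 to 0.0736), and that in TO without DMSO replicate 1, 3 or 4, PO replicate 2 or 4 or TO replicate 1, 2 or 3 (adjusted p = 0.0504 to 0.156). The call of AT4G08935 was lost in PO without DMSO replicate 4 or PO replicate 4 (adjusted p = 0.0521 and 0.0551) and in TO without DMSO replicate 4 or TO replicate 2 or 3 (adjusted p = 0.0517 to 0.0681).

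The replicate numbers did not pair the libraries (correlations of deviations from -0.138 to 0.200). With the replicate block 50 loci were called in PO and 73 in TO, including the same number of *UGT73B* genes (3 and 3), and the log2 fold change of *UGT73B2* was 2.01 in PO and 1.89 in TO.

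Among genes without a call, the sign turned for *UGD2* in PO (-0.027 without PO replicate 4, range without 1 library -0.027 to 0.124), for *LEJ1* in TO (-0.005 without TO replicate 3, range -0.005 to 0.104), for *MYB111* in TO (range -0.085 to 0.314, with -0.018, -0.074 and -0.085 without DMSO replicate 2, DMSO replicate 4 and TO replicate 2) and for *UGP2* in TO (range -0.081 to 0.083, with 0.044 with library totals, 0.068, 0.015, 0.003 and 0.083 without DMSO replicate 1, DMSO replicate 2, TO replicate 3 and TO replicate 4). The smaller pseudocount kept 4 of 5 nearest loci for *UGT73B1*, 3 for *UGT73B2* and 4 for *UGT73B3*. Without division by length, the share of *UGT73B3* was 13.3% in PO, 13.2% in TO and 13.1% in DMSO libraries, that of *UGT73B4* 4.23% in PO and that of *UGT73B5* 13.7% in TO. Among genes with another UGT name, 2 were called higher in TO without the filter. The cause was not tested in any of these cases.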
